A study of Danio rerio with 27 samples.

Results

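lrp2b (ENSDARG00000007906) and ctsl.1 (ENSDARG00000003902) are 2 of the 18336 genes measured in sorted zebrafish liver cells. They were selected on the difference between hepatic stellate cells of thioacetamide-treated fish and those of control fish, being among the genes that were highest in the treated fish by that measure. By that difference lrp2b ranked 2 and ctsl.1 ranked 3 among all genes, at 5.56 and 5.03 on the log2 scale. Just above them stood EGR2 at 5.76, and just outside the choice stood postnb at 4.71. The values of stellate cells are therefore a description and were not tested, whereas the other cell types were compared with tests.

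RNA was sequenced from cells sorted out of the livers of adult female zebrafish of 3 reporter lines on the AB background, with 100000 cells in each library. The reporter lines were Tg(hand2:EGFP) for hepatic stellate cells (HSCs), Tg(kdrl:ras-mCherry) for endothelial cells (ECs) and Tg(fabp10a:dsRed) for hepatocytes (HEPs), each named for the promoter that drives its fluorescent protein. The 27 libraries form 9 groups of 3. The TAA HSC, TAA EC and TAA HEP groups hold reporter-positive cells of fish that received 6 intraperitoneal injections of thioacetamide (TAA), a liver toxin, at 500 mg/kg over 2 weeks. The control HSC, control EC and control HEP groups hold reporter-positive cells of fish injected on the same schedule with the control solution, given as sterile water or as saline. The EGFP-negative, mCherry-negative and dsRed-negative groups hold the cells without fluorescence from control fish of the same lines, and no such cells of TAA fish are in the table. The labels do not say which libraries share a fish, and the methods count fewer control fish than control replicates, so that p-values measure the spread between libraries, part of which may be technical.

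Megalin, the product of LRP2 in mammals, is a very large receptor of the low-density lipoprotein receptor family. It sits at the apical surface of absorptive epithelia such as the kidney proximal tubule, where together with cubilin it binds filtered proteins, vitamin carriers and lipoproteins and carries them into clathrin-coated pits with the adaptor Dab2. The cargo moves through endosomes to the lysosome, where cathepsins and other acid hydrolases break it down. Zebrafish carry a pair of LRP2-related genes, lrp2a and lrp2b. ctsl.1 belongs to the cathepsin L family of lysosomal cysteine proteases. In zebrafish larvae the lysosome-rich enterocytes of the gut take up protein with cubilin and Dab2, and cathepsin L is among their enzymes.

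The values are rlog values, the regularized logarithm of DESeq2, on the log2 scale, where a difference of 1 stands for a doubling before shrinkage. They pull genes with few reads towards the mean of the gene and are not divided by gene length, so that levels are compared between groups of one gene and not between genes. The files hold no counts, and the depth of the libraries is unknown from them. For genes with hardly any reads the rlog ends in a low plateau, not at 0. The median over the 500 genes with the lowest means was between -1.41 and -0.60 in the 27 libraries, and this level is called the low plateau here.

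Some libraries had marker values unlike those of the cell type in their group name. The labels give only the line, the sort and the treatment. The study reports a decrease of vascular genes in ECs with TAA, and an enrichment of reporter reads in fluorescent-positive samples. The 3 TAA EC libraries had 2.05, 2.64 and 2.07 for kdrl, the gene of the vascular endothelial growth factor receptor whose promoter marks these cells, against 12.74, 12.78 and 12.51 in control ECs and 6.35, 6.03 and 6.16 in control HEPs. All 18 measured endothelial markers were lower in TAA ECs than in control ECs (limma, adjusted p under 0.05), as were 31.5% of all genes. The mean of the endothelial list was between 0.54 and 0.99 in TAA ECs, against 7.97 to 8.30 in control ECs. All 20 hepatocyte markers were higher in TAA ECs, as were 19.7% of all genes. The mean of the hepatocyte list was 13.51 to 13.86 in TAA ECs and 12.98 to 13.28 in TAA HEPs. The mean of the leukocyte list was between 1.14 and 1.42 in TAA ECs, against 6.72 to 6.77 in control ECs. Control HSCs carried the hepatocyte list at 12.26 to 13.19 and hand2 at -0.13, 1.39 and 0.77, against 2.80, 2.70 and 1.78 for hand2 in TAA HSCs. The hepatocyte list was as high in the 3 TAA HSC libraries, with means of 13.105, 13.18 and 13.19. The stellate list did not set control HSCs apart from reporter-negative cells. Its mean was 1.12 to 2.27 in control HSCs, 1.11 to 2.39 in EGFP-negative cells and 1.26 to 2.21 in dsRed-negative cells. Between control HSCs and EGFP-negative cells 6 of its 10 measured genes had a positive difference, with a median of 0.20. EGFP-negative replicate 3 stood apart from the other 2 libraries of its group, with a hepatocyte mean of 7.20. Whether fewer cells of a type or less RNA per cell lies behind such a difference cannot be told apart in bulk samples.

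**Figure D1:**
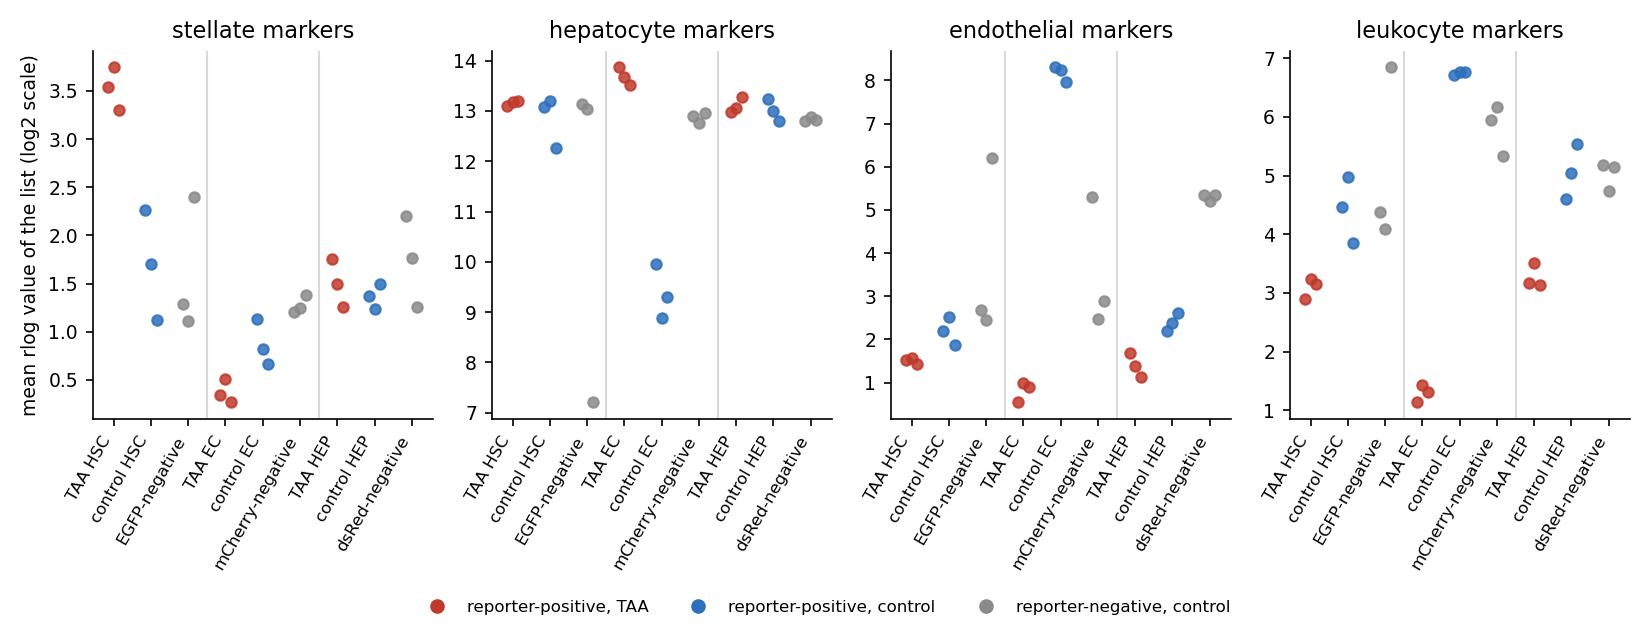
Mean rlog value (log2 scale) of 4 lists of marker genes in each of the 27 libraries, 1 point per library, in the 9 groups along the horizontal axis and with the y axis of each panel scaled to its list. The 3 TAA EC libraries lie at the bottom of the endothelial and leukocyte panels and at the top of the hepatocyte panel, and the 3 TAA HSC libraries lie at the top of the stellate panel, between 3.30 and 3.74.

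lrp2b, the megalin-type receptor, was at 5.32, 5.95 and 5.25 in TAA HSCs, against 0.43, -0.01 and -0.59 in control HSCs. All 3 TAA HSC libraries lay above all 3 controls, by a difference of the means of 5.56. EGFP-negative cells of the same line had 0.58, -0.71 and -1.35, and overlapped with control HSCs. In the other 24 libraries the gene ranged between -1.65 and 0.58 with a median of -0.99. The lowest TAA HSC library was 4.67 above the highest of these, and no other gene of the table had a wider gap between TAA HSCs and all remaining libraries. The gap uses the TAA HSC values by which the gene was chosen, so its rank is a description only. Every TAA HSC library was above all others for 140 genes, 0.764% of the table, and the gap was wider than 1 for 19 of them. The mean was 6.62 higher in TAA HSCs than in TAA ECs and 6.93 higher than in TAA HEPs.

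ctsl.1, the cathepsin L family gene, was at 5.98, 5.53 and 4.55 in TAA HSCs, against 0.07, 0.78 and 0.12 in control HSCs. The groups did not overlap, and the means differed by 5.03. EGFP-negative cells had -0.27, 1.58 and -0.69 and overlapped with control HSCs. The other 24 libraries ranged between -0.87 and 2.76, a wider span than that of lrp2b, with a median of 0.10. The lowest TAA HSC library was 1.78 above the highest of these, the widest gap but 5, again from values used in the choice. The wider gaps belonged to lrp2b, the matrix gene postnb and the type I collagen genes col1a2, col1a1b and col1a1a, and cubn, the gene of cubilin, came ninth at 1.42. The mean of ctsl.1 was 5.75 higher in TAA HSCs than in TAA ECs and 5.59 higher than in TAA HEPs.

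**Figure D2:**
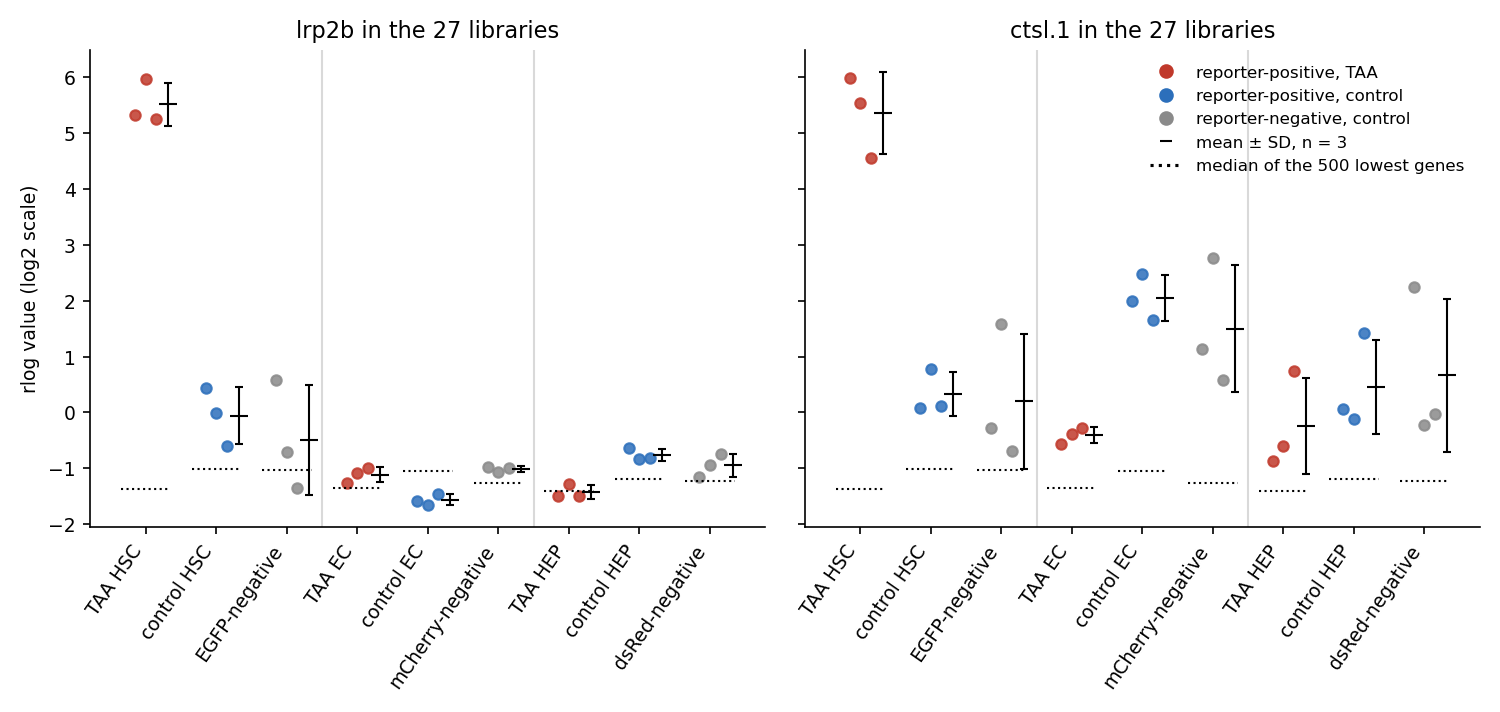
rlog values (log2 scale) of lrp2b and ctsl.1 in the 27 libraries, with 1 point per library, the mean ± SD of each group of 3 beside it and the median of the 500 lowest genes as a dotted line. Both genes stand out in the 3 TAA HSC libraries, at 5.25 to 5.95 and 4.55 to 5.98, and lrp2b lies near the dotted line in the EC and HEP groups, where ctsl.1 is spread between -0.87 and 2.76.

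As a background to these figures, 4.26% of all genes passed the threshold as higher in TAA HSCs than in control HSCs (limma, adjusted p under 0.05), and for 12.7% every TAA HSC library was above every control. The choice of the genes used this contrast, and nothing is read from it here. Markers of stellate cells moved in the same libraries. Of 10 measured stellate markers 6 rose and none fell in TAA HSCs, with a median difference of 1.66, and the list mean was between 3.30 and 3.74 in TAA HSCs, against 1.12 to 2.27 in control HSCs. Among those that rose were col1a2 by 4.38, col1a1a by 3.31, dcn by 2.29, pdgfrb by 2.12 and hand2 by 1.75. Of 16 leukocyte markers 9 fell, where 3.94% of all genes fell, and the list mean was between 2.90 and 3.24 in TAA HSCs, against 3.86 to 4.98 in control HSCs. Of 16 exocrine pancreas markers 6 fell, with a median difference of -1.73 and list means of 1.03 to 1.22 in TAA HSCs, against 2.49 to 2.80 in control HSCs. Of 20 hepatocyte markers none passed the threshold. Their part in the values of lrp2b and ctsl.1 was not tested.

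Cell types known for megalin and cubilin were looked at with lists of their markers. Without lrp2b, ctsl.1, lrp2a, cubn and dab2, the list of lysosome-rich enterocytes held 3 measured genes. Of these fabp6, the gene of the ileal bile acid-binding protein, rose in TAA HSCs to 0.74, 0.56 and 0.52, against -1.16, -0.72 and -1.13 in control HSCs (limma, adjusted p = 1.8e-05), whereas lgmn and pllp did not pass the threshold. Of 14 enterocyte markers 2 rose in TAA HSCs, anpepb by 2.45 and tm4sf4 by 2.22, and 12 did not pass, a share of 14.3% beside 4.26% of all genes that rose. Of the 14 differences 10 were positive, with a median of 0.64. The list mean was between 2.62 and 3.11 in TAA HSCs, against 1.87 to 2.498 in control HSCs. Such values were not particular to TAA HSCs. List means were 2.57 to 2.96 in TAA HEPs, 2.22 to 3.23 in control HEPs and 2.32 to 3.02 in TAA ECs. They were 2.84 to 3.42 in mCherry-negative and 2.76 to 4.88 in dsRed-negative cells, and lower, 1.24 to 1.64, in control ECs. In TAA HEPs 2 of the 14 rose, where 2.13% of all genes did. In TAA ECs 4 rose and 1 fell, where 19.7% and 31.5% of all genes did. The brush border gene vil1 averaged 0.62 in TAA HSCs and 0.09 in control HSCs, and fabp2, the intestinal fatty acid-binding protein, averaged 1.81 in TAA HSCs and 3.11 in control HSCs. Of the kidney tubule markers other than lrp2a and cubn none of 6 passed the threshold, and the list mean was between 2.65 and 3.23 in TAA HSCs, against 2.32 to 3.09 in control HSCs. The part of such cells in the result was not tested.

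hand2, the gene whose promoter marks the stellate cells, was not raised in TAA HSCs alone. TAA HEPs had 1.70, 1.78 and 0.82 for hand2, against -0.14, -0.29 and -0.27 in control HEPs (limma, adjusted p = 0.011). lrp2b was at -1.49, -1.29 and -1.50 in the same libraries. Of the 10 stellate markers hand2 alone passed in TAA HEPs, where 2.13% of all genes rose. The median of the 10 differences was 0.09, and 5 were positive. The part of stellate cells in these values was not tested. dsRed-negative replicate 1 had 1.73 for hand2, beside -1.15 for lrp2b and 2.24 for ctsl.1. In control HSCs the library with the most hand2, replicate 2 at 1.39, had -0.01 for lrp2b and 0.78 for ctsl.1. The stellate list gave another order, with means of 2.27, 1.70 and 1.12 in control HSC replicates 1, 2 and 3. In these libraries lrp2b was at 0.43, -0.01 and -0.59, the same order, and ctsl.1 at 0.07, 0.78 and 0.12. A relation to the stellate list was not tested.

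The 9 groups could be put in an order for each gene. For lrp2b the means were 5.51 ± 0.39 in TAA HSCs, -0.06 ± 0.51 in control HSCs, -0.49 ± 0.99 in EGFP-negative cells, -0.76 ± 0.11 in control HEPs, -0.94 ± 0.21 in dsRed-negative cells, -1.01 ± 0.05 in mCherry-negative cells, -1.11 ± 0.13 in TAA ECs, -1.42 ± 0.12 in TAA HEPs and -1.56 ± 0.10 in control ECs (SD, n = 3 each). Only TAA HSCs and TAA ECs were clear of the group next below them, and the libraries of every other pair of neighbours overlapped. For ctsl.1 the means were 5.35 ± 0.73 in TAA HSCs, 2.04 ± 0.41 in control ECs, 1.49 ± 1.14 in mCherry-negative cells, 0.67 ± 1.37 in dsRed-negative cells, 0.45 ± 0.84 in control HEPs, 0.32 ± 0.39 in control HSCs, 0.20 ± 1.21 in EGFP-negative cells, -0.24 ± 0.86 in TAA HEPs and -0.40 ± 0.14 in TAA ECs (SD, n = 3 each). Here only TAA HSCs were clear of the group next below. The second place went to control HSCs for lrp2b and to control ECs for ctsl.1, which stood last for lrp2b.

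TAA HSCs were the highest group of both genes, a place that their choice by the rise in TAA HSCs made likely. The order of the other groups differed between the genes. Over the 27 libraries Pearson's r between them was 0.77, a value set by the 3 TAA HSC libraries, and over the 24 libraries without them it was -0.22. The libraries form separate clusters, so that the first value only restates the gap between TAA HSCs and the rest. In TAA HSCs, replicate 3 had the lowest value of both genes and also of hand2, cubn and dab2, whereas lrp2a was lowest in replicate 2. The highest value was in replicate 2 for lrp2b and in replicate 1 for ctsl.1. Nothing is read from an order of 3 libraries.

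**Figure D3:**
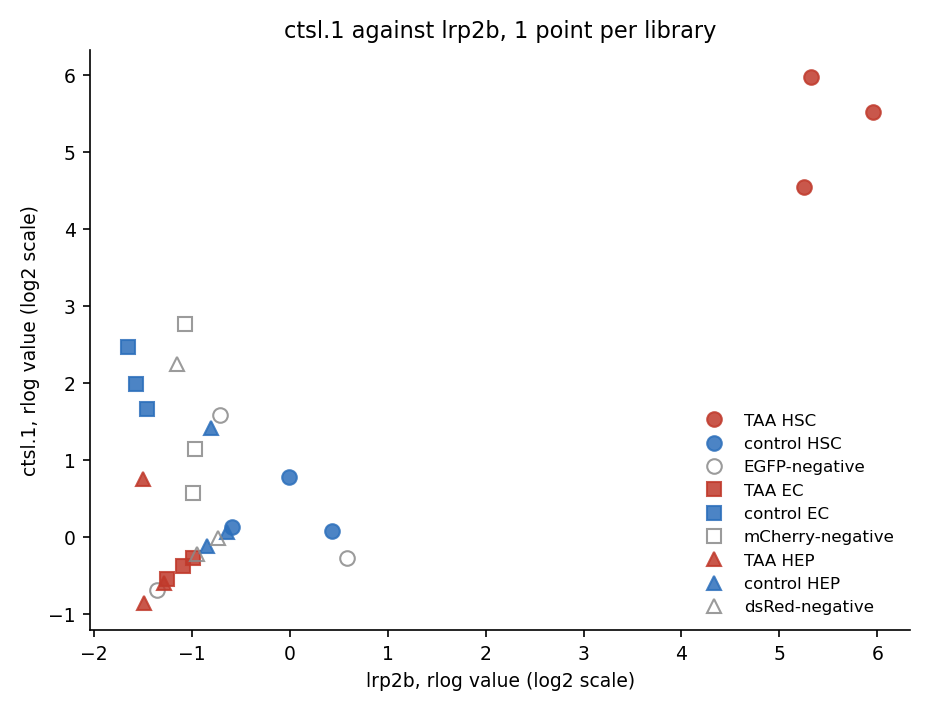
rlog value (log2 scale) of ctsl.1 on the vertical axis against that of lrp2b on the horizontal axis, 1 point per library, with the group given by colour and shape. The 3 TAA HSC libraries form a cluster at the top right, and the 24 others show lrp2b between -1.65 and 0.58 beside ctsl.1 between -0.87 and 2.76.

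Whether TAA also changed either gene in ECs and HEPs was compared next. ctsl.1 fell in the libraries labelled TAA EC, to -0.56, -0.38 and -0.27, against 1.99, 2.47 and 1.66 in control ECs. All 3 TAA EC libraries were below all 3 controls, which held for 36.6% of all genes in this comparison. The difference was -2.44 (SE 0.50, 95% interval -3.49 to -1.39, limma, adjusted p = 0.00037 by the Benjamini-Hochberg method), and 31.5% of all genes passed as lower in TAA ECs, so that the fall of ctsl.1 was one among many. The exact permutation test gave p = 0.10, the smallest value that 3 against 3 libraries allow. The median of all genes was -0.25 in this contrast. The call held in all 12 alternatives, with differences between -2.63 and -1.69. Endothelial and leukocyte markers fell in the same TAA EC libraries, with median differences of -7.58 and -6.42, and hepatocyte markers rose by a median of 4.44, and their part in the fall of ctsl.1 was not tested.

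lrp2b had -1.25, -1.09 and -0.99 in TAA ECs, against -1.57, -1.65 and -1.45 in control ECs. The 3 TAA EC libraries lay above the 3 controls, as they did for 25.4% of all genes. The difference was 0.45 (SE 0.29, 95% interval -0.15 to 1.05, limma, adjusted p = 0.21) and did not pass the threshold, which 19.7% of all genes passed as higher. It passed in a fit of the EC libraries alone (limma, adjusted p = 0.028) and after median centring (limma, adjusted p = 0.0050). Both groups lay near the low plateau, which was between -1.39 and -1.32 in TAA ECs and between -1.19 and -0.81 in control ECs.

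In HEPs neither gene passed the threshold. lrp2b had -1.49, -1.29 and -1.50 in TAA HEPs, against -0.64, -0.84 and -0.81 in control HEPs. The groups did not overlap, as for 17.9% of genes lower in TAA HEPs, and the difference was -0.66 (SE 0.29, 95% interval -1.26 to -0.06, limma, adjusted p = 0.18, exact permutation p = 0.10, the smallest value possible). In this contrast 5.27% of all genes passed as lower, and lrp2b did so only in a fit of the HEP libraries alone (SE 0.13, limma, adjusted p = 0.023). The SE of 0.29 pools the spread of all 18 reporter-positive libraries and is also that of the EC contrast. The SD of lrp2b was 0.12 and 0.11 in TAA and control HEPs, against 0.39 and 0.51 in TAA and control HSCs. The low plateau was between -1.41 and -1.38 in TAA HEPs and between -1.24 and -1.14 in control HEPs. ctsl.1 had -0.87, -0.60 and 0.75 in TAA HEPs, against 0.07, -0.12 and 1.42 in control HEPs. The groups overlapped, and the difference was -0.69 (SE 0.50, 95% interval -1.74 to 0.36, limma, adjusted p = 0.45, exact permutation p = 0.40).

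The change with TAA was then compared between ECs and HEPs in the same fit. For lrp2b the change in ECs exceeded that in HEPs by 1.11 (SE 0.41, 95% interval 0.26 to 1.96, limma, adjusted p = 0.035), a call that 16% of all genes shared in this direction. It was lost in the fit of all 27 libraries (adjusted p = 0.082) and after quantile normalization (adjusted p = 0.090). It was also lost without any one of TAA EC replicate 2 or 3, control EC replicate 1 or 2, TAA HEP replicate 1 or 3 or control HEP replicate 1, with limma adjusted p between 0.055 and 0.077 and differences between 1.05 and 1.11. For ctsl.1 the change in ECs minus that in HEPs was -1.75 (SE 0.71, 95% interval -3.23 to -0.27, limma, adjusted p = 0.056), which did not pass the threshold that 24.9% of all genes passed in this direction. It passed in a fit of the EC and HEP libraries alone (limma, adjusted p = 0.049), without the variance trend (limma, adjusted p = 0.047), without TAA HEP replicate 1 (limma, adjusted p = 0.038) and without control HEP replicate 3 (limma, adjusted p = 0.015).

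Between the TAA groups themselves neither gene passed the threshold. TAA ECs had lrp2b 0.31 higher than TAA HEPs (95% interval -0.29 to 0.92, limma, adjusted p = 0.78) and ctsl.1 at a difference of -0.16 (95% interval -1.21 to 0.89, limma, adjusted p = 0.97). In this comparison 4.03% of all genes passed.

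In control fish the genes differed between ECs and HEPs in opposite directions. ctsl.1 was 1.59 higher in control ECs than in control HEPs (SE 0.49, 95% interval 0.53 to 2.64, limma, adjusted p = 0.019), with all 3 control EC libraries above all 3 control HEP libraries. Of all genes 25.9% passed as higher and 35.3% had no overlap in that direction. The call was lost in the fit of all 27 libraries (adjusted p = 0.058), after median centring (adjusted p = 0.060), and without control EC replicate 2, control HEP replicate 1 or control HEP replicate 2 (limma, adjusted p between 0.066 and 0.081, differences between 1.30 and 1.39). lrp2b was lower in control ECs, with a difference of -0.80 (SE 0.27, 95% interval -1.37 to -0.22, limma, adjusted p = 0.027), with no overlap. Of all genes 17.1% passed as lower and 24.3% had no overlap in that direction. This call was lost in the fit of all 27 libraries (adjusted p = 0.062), without the variance trend (adjusted p = 0.064) and after quantile normalization (adjusted p = 0.085). It was also lost without any one of the 6 libraries other than control EC replicate 3 (limma, adjusted p between 0.053 and 0.084, differences between -0.84 and -0.74). The low plateau was -1.05 on average in control ECs and -1.20 in control HEPs. Marker lists differed in the same comparison. All 18 endothelial markers and 11 of 16 leukocyte markers were higher in control ECs, and all 20 hepatocyte markers were lower. The leukocyte list mean was 6.72 to 6.77 in control ECs, against 4.60 to 5.54 in control HEPs. The part of these markers in the differences of ctsl.1 and lrp2b was not tested.

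Reporter-positive control cells were also compared with the reporter-negative cells of the same line, without pairing of libraries. ctsl.1 differed by 0.55 between control ECs and mCherry-negative cells (95% interval -0.99 to 2.08, limma, adjusted p = 0.62) and by -0.21 between control HEPs and dsRed-negative cells (95% interval -1.75 to 1.32, limma, adjusted p = 0.98). lrp2b differed by -0.55 between control ECs and mCherry-negative cells (95% interval -1.33 to 0.23, limma, adjusted p = 0.29) and by 0.18 between control HEPs and dsRed-negative cells (95% interval -0.60 to 0.96, limma, adjusted p = 0.98). None of these passed the threshold, which 29.3% of all genes passed in the mCherry comparison and 0.534% in the dsRed comparison, although lrp2b passed in a fit of the mCherry libraries alone (limma, adjusted p = 0.024). Control HSCs were 0.44 above EGFP-negative cells for lrp2b and 0.12 above them for ctsl.1, as a description, and the differences were 0.0090 and -0.33 without EGFP-negative replicate 3. The single libraries spread widely for ctsl.1 in the negative fractions, with 2.76 in mCherry-negative replicate 2 and 2.24 in dsRed-negative replicate 1 beside values of 1.14 or less in the other libraries of these 2 groups.

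The partners of megalin were followed through the same libraries. cubn, the gene of cubilin, was at 5.42, 5.28 and 4.72 in TAA HSCs, against 2.83, 1.05 and 1.37 in control HSCs. It rose by 3.39 in TAA HSCs (SE 0.65, limma, adjusted p = 0.0033), with no overlap of the groups, and the call held in all 13 alternatives with adjusted p between 0.0020 and 0.020. The highest value of cubn outside TAA HSCs was 3.29, in EGFP-negative replicate 1. In ECs cubn had 2.27, 2.32 and 0.04 with TAA, against 1.80, 0.39 and 0.10 in controls, and in HEPs it had -0.53, -0.27 and 1.29 with TAA, against 0.38, 1.02 and 0.22 in controls. Neither of these differences passed the threshold (limma, adjusted p = 0.34 in ECs and 0.78 in HEPs).

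lrp2a, the other LRP2-related gene, did not follow lrp2b closely. It had 3.78, 3.20 and 3.37 in TAA HSCs, against 3.34, 1.74 and -0.02 in control HSCs, and the groups overlapped (difference 1.77, SE 0.65, limma, adjusted p = 0.10). Without control HSC replicate 1, the highest of its group, the difference was 2.59 and passed the threshold (limma, adjusted p = 0.011). EGFP-negative cells had 4.52, 0.83 and 4.11, so that 2 of the 3 libraries exceeded all TAA HSC libraries for lrp2a, while none did for lrp2b. The mean of the kidney tubule markers other than lrp2a and cubn was 3.80, 2.39 and 4.94 in these EGFP-negative libraries. It was 3.64 to 4.45 in dsRed-negative cells, where lrp2a was at 1.42 or less. The part of such cells in lrp2a was not tested. In the EC and HEP lines lrp2a was at 1.87 or less in all 18 libraries. dab2, the gene of the clathrin adaptor, had 3.32, 3.22 and 2.14 in TAA HSCs, against 1.46, 2.26 and 0.71 in control HSCs, with overlapping groups (difference 1.41, limma, adjusted p = 0.19). lrpap1, the gene of the receptor-associated chaperone that escorts the receptors of this family through the secretory pathway, was at 6.06 to 6.44 in TAA HSCs, against 6.03 to 7.30 in control HSCs. Amnionless (amn), the membrane anchor of cubilin, could not be matched to a row of the table and is not analysed here.

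The other cathepsin genes did not share the pattern of ctsl.1 as a group. ctsla was the other listed gene of the cathepsin L family that could be matched to a row by its symbol. It was at 7.27, 7.48 and 7.38 in TAA HSCs, against 7.24, 7.64 and 7.11 in control HSCs. The groups overlapped (difference 0.05, 95% interval -0.42 to 0.51, limma, adjusted p = 0.92). ctsbb, of the cathepsin B family, rose in TAA HSCs to 2.84, 2.32 and 1.88, against 0.23, 0.84 and 0.26 in control HSCs (difference 1.90, SE 0.40, limma, adjusted p = 0.0061), a call that was lost in the fit of the HSC libraries alone (adjusted p = 0.053) and of all 27 libraries (adjusted p = 0.075). Unlike ctsl.1, ctsbb was higher elsewhere, at 2.84, 3.95 and 3.18 in mCherry-negative cells. The cathepsin S family genes ctss2.1 and ctss2.2 fell in TAA HSCs, to 4.09 and 4.14 on average, against 5.86 and 5.70 in control HSCs (limma, adjusted p = 0.028 and 0.016). Both calls were lost in fits of the HSC libraries alone and of all 27 libraries, and without TAA HSC replicate 1, TAA HSC replicate 3 or control HSC replicate 2, and that of ctss2.1 also without TAA HSC replicate 2 (limma, adjusted p between 0.056 and 0.17, differences between -1.84 and -1.07). ctsa, ctsc, ctsd, ctsf, ctsh, ctsk, ctso, ctss1 and ctsz did not pass the threshold in HSCs.

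**Figure D4:**
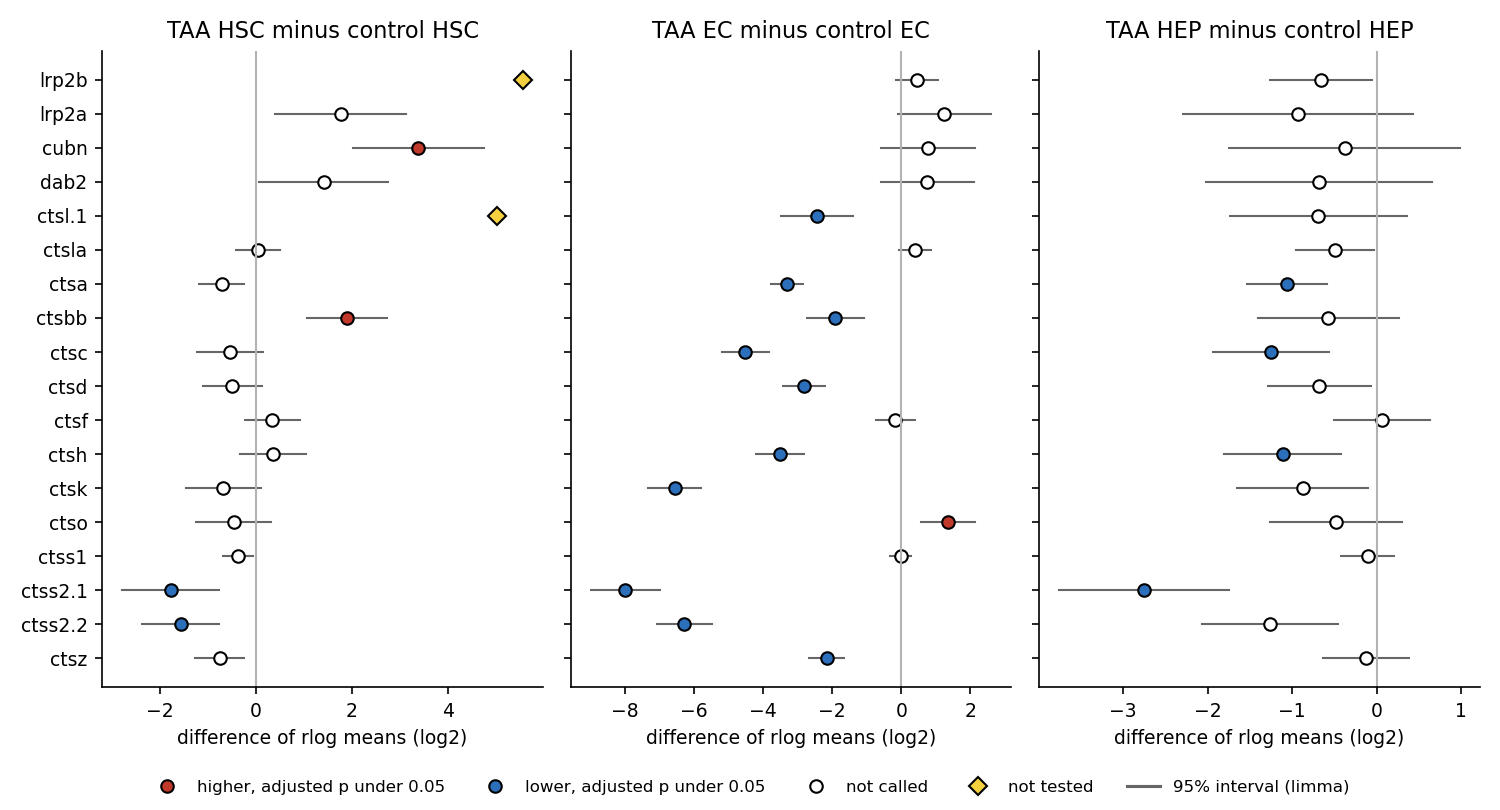
Difference of the mean rlog values (log2 scale, horizontal axis) between TAA and control cells for the receptor genes and the cathepsin genes, in HSCs, ECs and HEPs. Bars are 95% intervals from limma, filled circles passed the threshold, and diamonds mark lrp2b and ctsl.1 in HSCs, which were not tested. In HSCs only cubn and ctsbb passed as higher, whereas in ECs ctsl.1 fell beside 9 other cathepsin genes and ctso rose.

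In ECs the fall of ctsl.1 stood beside that of most cathepsins. Of the 13 other cathepsin genes that could be matched by symbol 9 were lower in TAA ECs than in control ECs, in a comparison where 31.5% of all genes were. Endothelial and leukocyte markers fell in the same libraries, with median differences of -7.58 and -6.42, and hepatocyte markers rose by a median of 4.44, and their part in these falls was not tested. Their differences were -8.00 for ctss2.1, -6.57 for ctsk, -6.29 for ctss2.2, -4.52 for ctsc, -3.52 for ctsh, -3.31 for ctsa, -2.81 for ctsd, -2.16 for ctsz and -1.91 for ctsbb, all with limma adjusted p of 0.00043 or less. ctsk, best known from bone-resorbing cells, was at 1.47, 1.23 and 1.37 in TAA ECs, against 7.95, 7.97 and 7.85 in control ECs. The size of the fall of ctsl.1 is not ranked against these, because the genes started at unlike levels above the low plateau. In control ECs ctsl.1 averaged 2.04 and ctsbb 1.79, against 9.87 for ctss2.1, 10.07 for ctsc and 7.92 for ctsk. The low plateau was between -1.39 and -1.32 in TAA ECs. ctso rose by 1.35 (limma, adjusted p = 0.0047), and ctsla, ctsf and ctss1 did not pass the threshold. In HEPs 4 of the 13 fell with TAA, where 5.27% of all genes fell, with differences of -2.75 for ctss2.1, -1.26 for ctsc, -1.11 for ctsh and -1.07 for ctsa (limma, adjusted p between 0.0017 and 0.045). Leukocyte markers fell in the same libraries, 11 of 16, and exocrine pancreas markers, 7 of 16, and their part was not tested. The calls of ctsa, ctsc and ctsh were lost in the fit of all 27 libraries (limma, adjusted p = 0.21, 0.18 and 0.18). The call of ctsc was also lost without TAA HEP replicate 2 or 3 or control HEP replicate 1 or 3 (limma, adjusted p between 0.052 and 0.11). That of ctsh was lost with the replicate block (adjusted p = 0.057), without the variance trend (adjusted p = 0.063), in the fit of the HEP libraries alone (adjusted p = 0.10), in that without the TAA EC libraries (adjusted p = 0.052), and without any one of the 6 HEP libraries other than control HEP replicate 1 (limma, adjusted p between 0.055 and 0.18). In the 9 groups, ctss2.1, ctss2.2, ctsk, ctsc, ctsh, ctsa, ctsd and ctsz had their highest mean in control ECs, whereas ctsl.1 had its second highest there, after TAA HSCs. The leukocyte and endothelial lists also had their highest group means in control ECs, at 6.75 and 8.17, and their part was not tested.

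The wider route of uptake and degradation was followed with 6 lists, which held 153 measured genes besides lrp2b and ctsl.1. In HSCs 8 of the 153 rose and 8 fell with TAA, together 10.5% of the lists, against 8.21% of all genes, of which 4.26% rose and 3.94% fell, and the median difference of the lists was -0.06, as for all genes. After median centring 7 rose and 12 fell, while 8.43% of all genes passed in either direction. Only cubn and ITSN1, an endocytic scaffold, had all 3 TAA HSC libraries above the other 24, which is 1.31% of the lists against 0.764% of all genes, and the gap of ITSN1 was 0.013. The count of 16 genes called in HSCs fell to 4 in the fit of the HSC libraries alone, to 9 without TAA HSC replicate 1 and to 10 without TAA HSC replicate 3. The share of all genes called was 3.44%, 4.18% and 4.01% in these fits, against 8.21%.

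Among the receptors, 1 of 18 rose and 3 fell in TAA HSCs, where 4.26% of all genes rose and 3.94% fell. lrp6, a Wnt co-receptor of the same family as lrp2b, rose by 0.98 (limma, adjusted p = 0.0074), although not in the fit of the HSC libraries alone (adjusted p = 0.11) or of all 27 libraries (adjusted p = 0.063). The low-density lipoprotein receptor gene ldlrb fell (difference -3.05, limma, adjusted p = 0.0051), as did the mannose receptor gene mrc1b (difference -2.38, limma, adjusted p = 0.00041) and the transferrin receptor gene tfr1b (difference -1.32, limma, adjusted p = 0.00019).

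Of the 36 genes of clathrin coats and endosomes 1 rose and 2 fell in TAA HSCs, where 4.26% of all genes rose and 3.94% fell. Together these were 8.33% of the list, close to the 8.21% of all genes that passed in either direction. The gene that rose was appl1, an endosomal adaptor, by 1.49 (limma, adjusted p = 0.011). The clathrin light chain gene clta fell (difference -1.45, limma, adjusted p = 0.027), and so did rab11al, of a recycling endosome family (difference -2.01, limma, adjusted p = 0.0084). In the fit of the HSC libraries alone none of these 3 passed (limma, adjusted p = 0.10 for appl1, 0.054 for clta and 0.055 for rab11al). The call of clta was also lost without any one TAA HSC library and without control HSC replicate 3 (limma, adjusted p between 0.058 and 0.11).

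Of the 20 lysosomal peptidases besides ctsl.1, only ctsbb rose in TAA HSCs, and ctss2.1, ctss2.2 and prcp, a carboxypeptidase, fell (difference of prcp -1.42, limma, adjusted p = 0.0023, and 0.058 in the fit of the HSC libraries alone). The median of these 20 was -0.45. Of the 37 other hydrolases 3 rose and none fell, with a median of 0.25, where 4.26% of all genes rose and 3.94% fell. The 3 were hexa, of a hexosaminidase subunit, by 1.39, and sgsh and gns, of sulfatases that degrade heparan sulfate, by 1.23 and 1.196 (limma, adjusted p = 0.025, 0.044 and 0.014). In the fit of the HSC libraries alone none of these 3 passed (limma, adjusted p = 0.13, 0.19 and 0.089), and hexa and sgsh did not in that of all 27 libraries (adjusted p = 0.0503 and 0.059). The call of sgsh was also lost in the fit without the TAA EC libraries (adjusted p = 0.070). The calls of hexa and sgsh were lost without TAA HSC replicate 1 or 3 or control HSC replicate 3, that of sgsh also without TAA HSC replicate 2, and that of gns without TAA HSC replicate 1 (limma, adjusted p between 0.072 and 0.16). Of the 36 genes of the lysosomal membrane and proton pump 2.78% passed, against 8.21% of all genes in either direction. The only gene called was npc1, which exports cholesterol from the lysosome, and it rose by 0.56 (limma, adjusted p = 0.038). Its call was lost without any one TAA HSC library and without control HSC replicate 2 (limma, adjusted p between 0.091 and 0.14), and it held in 5 of 14 alternatives only, being lost also in the fit of the HSC libraries alone (0.13) and of all 27 (0.092), without the variance trend (0.091), after median centring (0.10) and after quantile normalization (0.065).

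In ECs 12 of the 153 genes rose and 93 fell with TAA, 68.6% against 51.2% of all genes, of which 19.7% rose and 31.5% fell, with a median difference of -1.04 against -0.25. All 18 endothelial markers and 14 of 16 leukocyte markers fell and all 20 hepatocyte markers rose in the same libraries, and their part in these counts was not tested. After median centring 28 rose and 61 fell, together 89 of the 153, while 52.3% of all genes passed in either direction. The peptidases had the lowest median, at -2.52, with 15 of 20 lower, and the membrane and pump genes had -1.28, with 24 of 36 lower. Among the receptors the transferrin receptor gene tfr2 rose by 5.44 in TAA ECs, and the scavenger receptor gene stab1 and the mannose receptor gene mrc1b fell, with differences of -7.07 and -7.02. The lysosomal membrane gene cd63 fell by 4.68. Of the 6 measured genes of the receptor complex besides lrp2b, 1 fell in ECs, where 31.5% of all genes fell. It was gipc1, with a difference of -1.04 (limma, adjusted p = 0.017), a call that held in 6 of 13 alternatives. It was lost, among others, after median centring (limma, adjusted p = 0.28) and after quantile normalization (limma, adjusted p = 0.36). The genes lrp2a, cubn and dab2 did not pass in ECs, with differences of 1.25, 0.78 and 0.76 (limma, adjusted p = 0.12, 0.34 and 0.35). lrp2a passed after median centring (limma, adjusted p = 0.017), and dab2 did so after quantile normalization (limma, adjusted p = 0.040).

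In HEPs 1 of the 153 genes rose and 14 fell, 9.80% against 7.4% of all genes, of which 2.13% rose and 5.27% fell, with a median of -0.18 against -0.02. The low-density lipoprotein receptor gene ldlra fell by 2.66 (limma, adjusted p = 4.0e-05), and eea1, an endosomal tether, was the gene that rose, by 1.25 (limma, adjusted p = 0.0096), a call lost in the fit of the HEP libraries alone (adjusted p = 0.055) and without TAA HEP replicate 3 (adjusted p = 0.0503). lrp2a, cubn and dab2 did not pass, with differences of -0.94, -0.38 and -0.68. The count of 15 fell to 9 without any one TAA HEP library and to 6 without control HEP replicate 3. Without TAA HEP replicate 1, 2 or 3 the share of all genes called was 4.199%, 4.64% and 4.26%, against 7.4%. Without control HEP replicate 3 this share was 5.84%. Leukocyte markers also fell in TAA HEPs, 11 of 16, with list means of 3.13 to 3.52, against 4.60 to 5.54 in control HEPs. Exocrine pancreas markers fell as well, 7 of 16, with a median difference of -2.47 and list means of 0.50 to 1.43 in TAA HEPs, against 1.94 to 4.58 in control HEPs, and the part of these markers in the counts was not tested.

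**Figure D5:**
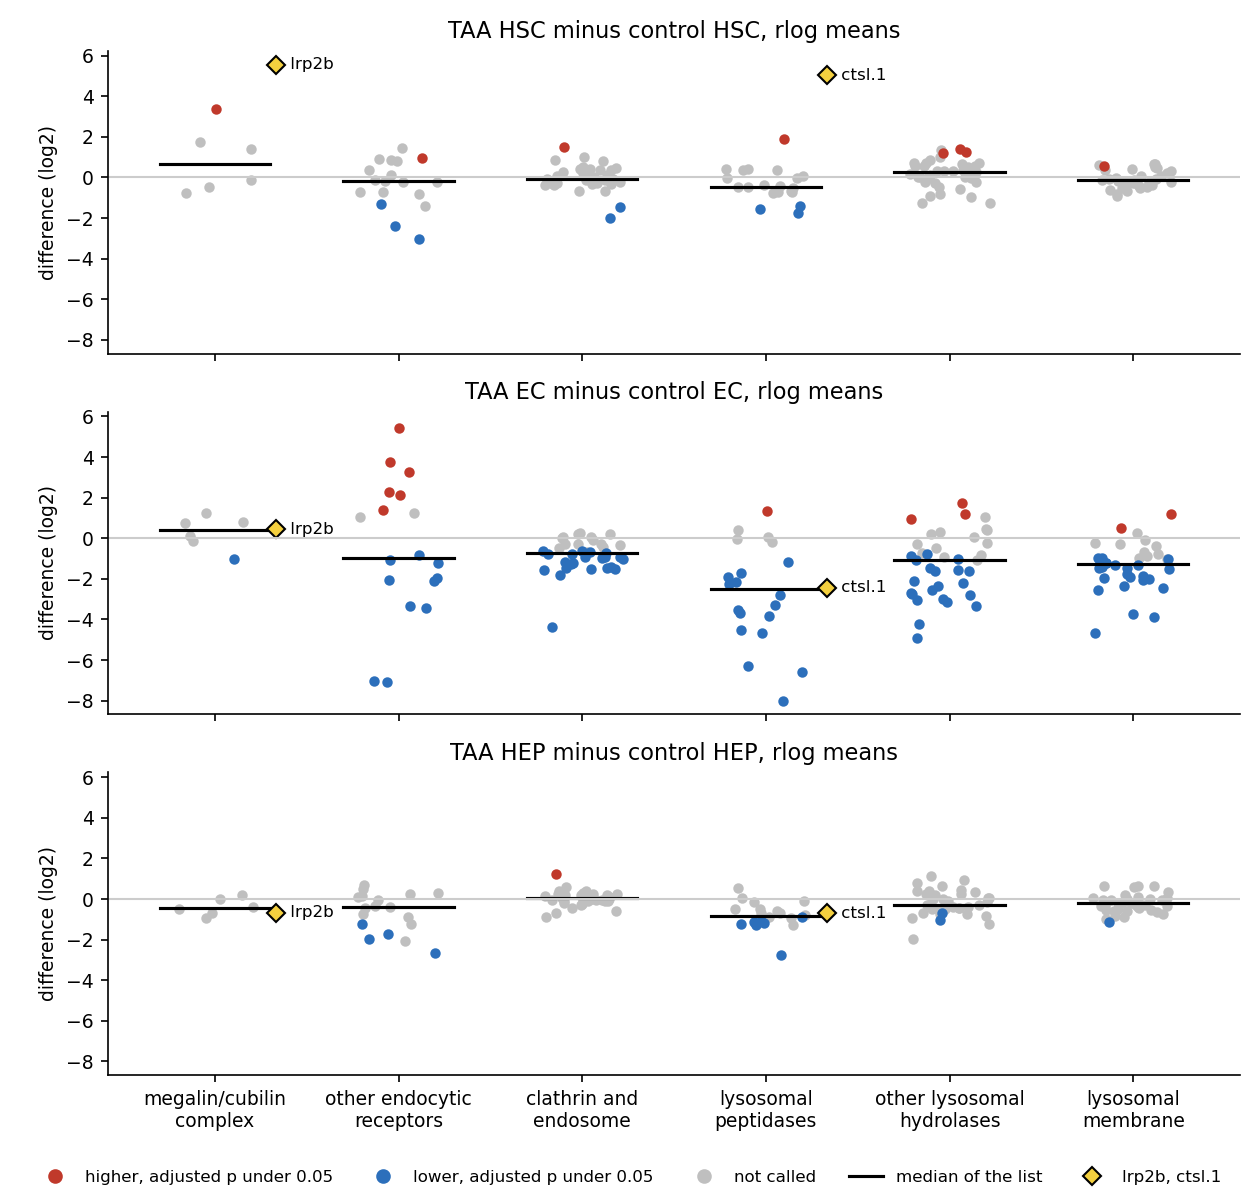
Difference of the mean rlog values (log2 scale) between TAA and control cells for the genes of the 6 lists, 1 point per gene, in HSCs, ECs and HEPs, with the median of each list and lrp2b and ctsl.1 marked. In HSCs the medians of the lists are between -0.45 and 0.65, and both genes lie above them, a place fixed by their choice on this difference. In ECs ctsl.1, at -2.44, lies close to the median of the other peptidases, at -2.52.

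The genes whose values over the 27 libraries were most like those of lrp2b were found by Pearson's r, as a description. For lrp2b they were sh3pxd2ab (0.93), which codes for a podosome scaffold, a gene with no symbol (0.90), xirp1 (0.89), gata1b (0.89), fabp6 (0.89), SFRP1 (0.87), of a secreted Wnt inhibitor, colec12 (0.87), of a scavenger collectin, fhdc4 (0.86), si:ch211-106h4.12 (0.85) and jam2b (0.85), of a junctional adhesion molecule. Their differences between TAA and control HSCs were between 0.88 and 1.92, beside 5.56 for lrp2b, which was chosen by this difference. sh3pxd2ab was at 0.67, 0.65 and 0.39 in TAA HSCs, against -0.91, -0.52 and -0.88 in control HSCs, and jam2b was at 1.103, 1.06 and 0.93, against 1.08, -0.48 and -0.94, so that 1 control library reached the TAA level. In the 7 groups besides TAA and control HSCs the means of the 10 genes lay between -1.57 and -0.36, low in the range of the table, where the rlog shrinks differences.

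For ctsl.1 the list was bnc1 (0.80), of a zinc finger factor of epithelia and mesothelium, fabp6 (0.79), cyp1c1 (0.78), of a cytochrome P450, lrp2b (0.77), MDK (0.76), of the growth factor midkine, C1QTNF6 (0.76), KIRREL1 (0.74), csf1a (0.74), of a macrophage colony-stimulating factor, acot19 (0.73) and cacna1eb (0.72), of a calcium channel subunit. bnc1 was at 1.45, 1.43 and 1.09 in TAA HSCs, against -0.74, -0.25 and -0.70 in control HSCs. cyp1c1 was at 2.16, 2.74 and 2.04 in TAA HSCs, against 0.59, 0.29 and -0.21 in control HSCs, and like ctsl.1 it had its second highest group mean in control ECs, at 1.26. MDK averaged 4.21 in TAA HSCs and 1.18 in control HSCs. fabp6 was the gene common to both lists of 10, while ctsl.1 itself ranked 36 for lrp2b. All these values share the 3 TAA HSC libraries, and with Spearman's rho in place of r only 2 of 10 genes remained for lrp2b and 1 of 10 for ctsl.1.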

How the data were processed

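The authors trimmed the reads with cutadapt 1.18 after FastQC 0.11.8, aligned them with STAR 2.6 to GRCz11, used SAMtools 1.9 and deposited log2 rlog values made with DESeq2, for 18336 genes in 27 libraries. The treatment of reads that near-identical genes share is not given in the sources used here, so values of cathepsin family copies are uncertain in that respect. Depth is unknown, no interval for counting error can be given, and no 2 libraries were identical.

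Group means were compared with limma 3.58.1 in R 4.3.3 (contrasts with a variance trend, Benjamini-Hochberg adjustment over all genes, threshold 0.05). TAA contrasts used the 18 reporter-positive libraries, control ECs against HEPs the 9 positive control libraries, and positive against negative cells the 18 control libraries. Exact permutation tests were two-sided. The code was tested on simulated data. Tables and figures used Python 3.11.15.

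The genes and lists were chosen with earlier results of these data known. Named were the receptor complex, the cathepsins, up to 4 genes of each list in HSCs and up to 3 in ECs and HEPs with the largest called differences, and 10 genes by pattern. Other genes were named after their values were seen. Symbols came from a supplementary gene table of the study (1072 IDs) and a gene name table (17233 IDs), spelled as there. Deviations of same-numbered positive and negative libraries correlated at 0.13 to 0.19 in the mCherry line and at 0.11 to 0.16 in the dsRed line. The labels state no pairing, and the tests of positive against negative cells used none, so a pairing in these lines would be ignored by them.

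Alternatives were fits of the compared libraries alone or of all 27, no variance trend, a mean rlog of at least 3, median centring, quantile normalization, a replicate block and leaving out each library.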

Additional observations from a re-analysis of the deposited data

Results flagged for a closer look

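The change of lrp2b with TAA differed between ECs and HEPs by 1.11 on the log2 scale in the test of the difference itself (limma, adjusted p = 0.035). All 3 TAA ECs lay above all 3 control ECs and all 3 TAA HEPs lay below all 3 control HEPs, and neither change passed the threshold alone. All these values lay within 1 of the low plateau, and the TAA EC libraries are those whose endothelial markers were far below those of control ECs.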

How the results depend on the processing

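The 14 tested results of lrp2b and ctsl.1 were recomputed under 182 alternatives, of which 147 kept direction and side of the threshold. The 4 untested ones moved by less than 1 SD in all 32 of theirs, 3 of which changed a sign. The cause of the changes below was not tested.

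The lrp2b change in ECs passed in a fit of the compared libraries (0.45) and after median centring (1.03), that in HEPs in a fit of the compared libraries (-0.66), and so did mCherry-positive against negative cells (-0.55). The difference of the lrp2b change between ECs and HEPs was lost with all 27 libraries (1.11) and after quantile normalization (0.88), and was 1.05 to 1.18 without single libraries. Control ECs against HEPs was lost for lrp2b with all 27 libraries (-0.80), without the variance trend (-0.80) and after quantile normalization (-0.64), and was -0.85 to -0.74 without single libraries. For ctsl.1 it was lost with all 27 libraries (1.59) and after median centring (1.19), and was 1.30 to 2.07 without single libraries. The difference of the ctsl.1 change between ECs and HEPs passed in a fit of the compared libraries (-1.75) and without the variance trend (-1.75), and was -2.23 to -1.26 without single libraries.

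3 values of ctsl.1 changed sign. TAA ECs against TAA HEPs reached 0.33 without TAA HEP replicate 3 (range -0.48 to 0.33). dsRed-positive against negative cells reached 0.053 after median centring, 0.16 after quantile normalization, 0.58 without dsRed-negative replicate 1 and 0.075 without control HEP replicate 2 (range -0.69 to 0.58). The untested difference of EGFP-positive and negative cells, 0.12, was -0.12 without EGFP-negative replicate 1, -0.33 without EGFP-negative replicate 3 and -0.11 without control HSC replicate 2 (range -0.33 to 0.81).

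The count of list genes called in HEPs (15) became 4 with all 27 libraries and 6 to 14 without single libraries. That in HSCs (16) became 4 with the compared libraries, 9 with all 27 and 9 to 21 without single libraries, and that in ECs (105) stayed between 89 and 106. The share of all genes called fell to 2.47% in HEPs with all 27, and was 4.199% to 6.25% without single libraries. In HSCs it fell to 3.44% with the compared libraries and to 4.08% with all 27. Without single libraries it was 3.998% to 10.2% in HSCs. In ECs it stayed between 45.8% and 56.7%. A fit without the 3 TAA EC libraries, chosen after seeing the data, called 13 in HEPs and 15 in HSCs, beside 6.36% and 7.11% of all genes.

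With the replicate number as a block no call of lrp2b or ctsl.1 changed, and 105, 14 and 16 list genes were called in ECs, HEPs and HSCs. The share of all genes called was then 51.1%, 7.06% and 8.001%. The block gives each number an effect common to all lines. It cannot represent a pairing within a line, and nothing is read from it about such a pairing. In the TAA contrasts same-numbered libraries correlated at -0.04 to 0.07, although every EC library correlated best with its own number. The labels do not say what same-numbered libraries share.

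The filter on a mean rlog of at least 3 removes both genes. Among the 18 reporter-positive libraries 4 of the 10 genes most like each of them were shared with the lists given above. The untested HSC differences were 5.29 to 5.83 for lrp2b and 4.71 to 5.43 for ctsl.1. With 3 libraries a group and no counts, small differences near the low plateau cannot be told from noise.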
